A study of Mus musculus with 14 samples.

Results

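The linker histone genes H1f0, H1f1, H1f2, H1f3, H1f4 and H1f5 were followed in mouse cerebral cortex after cerebral venous sinus thrombosis (CVST), in which a clot blocks the large veins through which blood leaves the brain. They were the 6 genes whose symbol in the deposited count table equals one of these names, of 55359 genes in all. The group was chosen because H1f4 had been seen low at 2 days only in these same samples, so the values of its members are a description and carry no test. Of the 6 genes, 3 passed the filter on low counts, H1f0, H1f2 and H1f4, and the other 3 were covered by at most 5 counts in any library.

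RNA was sequenced from cortex tissue of both hemispheres in 14 samples. The groups were 5 samples at 7 d after CVST (CVST-7d), 5 samples at 2 d after CVST (CVST-2d) and 4 sham samples. The labels give no strain, sex, age or genotype, no collection time for the sham samples, and no statement that each sample is a separate animal, so p-values measure the spread between these samples, which may be technical. The labels say that libraries were made from total RNA with the NEBNext Ultra RNA kit, and do not say whether RNA was chosen by its poly(A) tail.

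Linker histones bind the DNA where it enters and leaves the nucleosome and help chromatin fold into more compact fibres. H1f1 to H1f5 encode the replication-dependent subtypes H1.1 to H1.5, whose genes lie among the core histone genes and are mostly expressed while DNA is copied. Their mRNAs typically end in a stem-loop in place of a poly(A) tail. H1f0 encodes H1.0, a replication-independent subtype with a polyadenylated mRNA that accumulates in cells that have stopped dividing, such as neurons.

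The promoters of the 3 members past the filter are shown to set the 2 replication-dependent genes beside H1f0, and are given as the 250 bases before the RefSeq gene start on build GRCm38.p6. All 6 members had an entry. Capitals mark 3 motifs that were searched on both strands, AAACACA (called the H1 box), CCAAT and TATAAA, which do not overlap one another in these windows.
H1f4 (chr13:23622559-23622808, minus strand): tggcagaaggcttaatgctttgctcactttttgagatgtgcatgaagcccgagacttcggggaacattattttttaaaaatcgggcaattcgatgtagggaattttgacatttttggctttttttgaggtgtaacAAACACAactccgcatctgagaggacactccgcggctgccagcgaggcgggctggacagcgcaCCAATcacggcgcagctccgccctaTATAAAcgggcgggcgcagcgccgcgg
H1f2 (chr13:23738557-23738806, plus strand): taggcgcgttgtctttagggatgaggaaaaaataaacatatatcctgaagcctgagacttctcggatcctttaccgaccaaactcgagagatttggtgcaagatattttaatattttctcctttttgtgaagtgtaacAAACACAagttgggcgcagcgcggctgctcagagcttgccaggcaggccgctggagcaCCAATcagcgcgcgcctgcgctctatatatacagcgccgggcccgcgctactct
H1f0 (chr15:79027962-79028211, plus strand): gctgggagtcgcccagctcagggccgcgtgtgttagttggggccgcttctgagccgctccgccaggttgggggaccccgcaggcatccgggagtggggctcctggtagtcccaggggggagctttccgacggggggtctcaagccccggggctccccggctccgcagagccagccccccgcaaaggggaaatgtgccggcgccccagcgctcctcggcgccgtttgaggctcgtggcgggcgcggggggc
The H1f4 window held AAACACA beginning 115 bases before the start, CCAAT at 52 bases and TATAAA at 27 bases. The H1f2 window held AAACACA at 112 bases and CCAAT at 54 bases, with no exact TATAAA. The similar letters tatatata, which were not searched for, stand between its CCAAT and the start. The H1f0 window held none of the 3 motifs. AAACACA was present in 4 of the 6 members' windows (H1f2, H1f3, H1f4 and H1f5), against 6.25% of 32851 RefSeq promoter windows of the same length and 4 of 53 core histone windows. CCAAT was present in 5 of the 6 members, in 33.8% of all windows and in 43 of 53 core histone windows. TATAAA was present in 4 of the 6 members, in 12.4% of all windows and in 24 of 53 core histone windows. These are matches of letters, not shown binding sites.

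By the order of genes in RefSeq, H1f4 lies on chromosome 13 between the core histone genes H2bc6 and H2ac6, and H1f2 lies on the same chromosome between Hfe, an iron-regulating gene, and the core histone gene H3c3. H1f1, H1f3 and H1f5 lie on chromosome 13 as well, each beside at least 1 core histone gene. H1f0 lies alone on chromosome 15, between Triobp and Gcat. In the GENCODE M21 annotation, H1f4 and H2bc6 run on the same strand and share 496 exon bases, so reads of these 2 genes may not be separable. The gene Gm11398 overlaps both on that strand, and Gm49544 overlaps H1f0 on the other strand. H1f2 and the other members overlap no gene there. For the authors' counting, the annotation release is not given in the sources used here, nor is the strand setting, so reads of overlapping genes may not be told apart.

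Gene counts summed to 14.7 M to 20.8 M (mega) per library, and mitochondrially encoded genes took 6.73% to 8.71% of them. Replicates differed by more than counting error, with a lowest chi-square per degree of freedom of 7.76 between replicates. Levels below are CPM, counts scaled by library total and TMM factors, and comparisons between genes use the deposited FPKM, in which fragments are divided by gene length and library total. Differences are log2 fold changes of the edgeR fit over all 14 samples with the standard error (SE) of that fit.

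H1f0 (ENSMUSG00000096210), the replication-independent subtype, had the highest deposited FPKM of the linker histone genes in every library. Over RefSeq gene lengths it was exceeded by H1f2 in libraries 4 and 5 of CVST-7d. It had 96.7, 104, 103, 109.6 and 89.4 CPM in CVST-7d, 103, 108, 98, 96.5 and 88.9 CPM in CVST-2d, and 102, 93.4, 108 and 93.4 CPM in sham. The groups overlapped throughout. Means were 101 ± 7.73 CPM in CVST-7d (SD, n = 5), 98.9 ± 7.25 CPM in CVST-2d (SD, n = 5) and 99.2 ± 7.28 CPM in sham (SD, n = 4). The log2 fold change was -0.00 ± 0.08 for CVST-2d against sham, 0.02 ± 0.08 for CVST-7d against sham and 0.02 ± 0.07 for CVST-7d against CVST-2d (SE), and its sign changed when single libraries were left out. H1f0 was covered by 1388 to 2306 counts per library and had the smallest SE of the members.

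H1f2 (ENSMUSG00000036181) encodes H1.2, a replication-dependent subtype that is also found in cells that no longer divide. It had 20.9, 16.2, 22.4, 36.8 and 30.3 CPM in CVST-7d, 16.6, 17.9, 13.7, 9.68 and 12.3 CPM in CVST-2d, and 15.9, 20.4, 15.5 and 22.9 CPM in sham. Of the CVST-2d libraries, 3 of 5 lay below every sham library, and of the CVST-7d libraries, 2 of 5 lay above every sham library and 4 of 5 above every CVST-2d library. Means were 25.3 ± 8.20 CPM in CVST-7d (SD, n = 5), 14.04 ± 3.29 CPM in CVST-2d (SD, n = 5) and 18.7 ± 3.57 CPM in sham (SD, n = 4). The log2 fold change was -0.41 ± 0.23 for CVST-2d against sham, 0.44 ± 0.23 for CVST-7d against sham and 0.85 ± 0.22 for CVST-7d against CVST-2d (SE).

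H1f4 (ENSMUSG00000051627) encodes H1.4, a replication-dependent subtype. It had 17, 26, 27, 75 and 26 counts in CVST-7d, 7, 10, 5, 6 and 4 counts in CVST-2d, and 28, 27, 19 and 29 counts in sham. All 5 CVST-2d libraries lay below all sham and all CVST-7d libraries, whereas CVST-7d and sham overlapped. In CPM the means were 1.99 ± 1.24 in CVST-7d (range 1.18 to 4.19, SD, n = 5), 0.348 ± 0.0868 in CVST-2d (range 0.232 to 0.469, SD, n = 5) and 1.45 ± 0.334 in sham (range 0.951 to 1.65, SD, n = 4). The log2 fold change was -2.02 ± 0.40 for CVST-2d against sham (SE), a 4.06-fold lower level in CVST-2d. It was 2.48 ± 0.38 for CVST-7d against CVST-2d, a 5.58-fold higher level in CVST-7d, and these 2 comparisons share the CVST-2d libraries. Summed over libraries, 32 counts in CVST-2d stood against 103 in sham, a ratio of pooled CPM without TMM factors of 0.257 (exact interval 0.167 to 0.385 at a confidence level of 0.95, counting error only). In bulk tissue, fewer cells that make H1f4 and less H1f4 RNA per cell cannot be told apart.

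For CVST-7d against sham, the H1f4 log2 fold change was 0.46 ± 0.36 (SE). It rested on library 4 of CVST-7d, which held 75 of the group's 171 counts, and was -0.01 without that library. In the same library H1f0 and H1f2 also had their highest CPM of the 14 libraries. Across the 14 libraries, the log2 CPM of H1f2 and H1f4 had a Pearson r of 0.789, and 0.600 after the group means were taken out. For H1f0 with H1f4 these were 0.261 and 0.444, and for H1f0 with H1f2 they were 0.114 and 0.0588. These values are descriptions over 14 libraries that share their scaling.

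**Figure D1:**
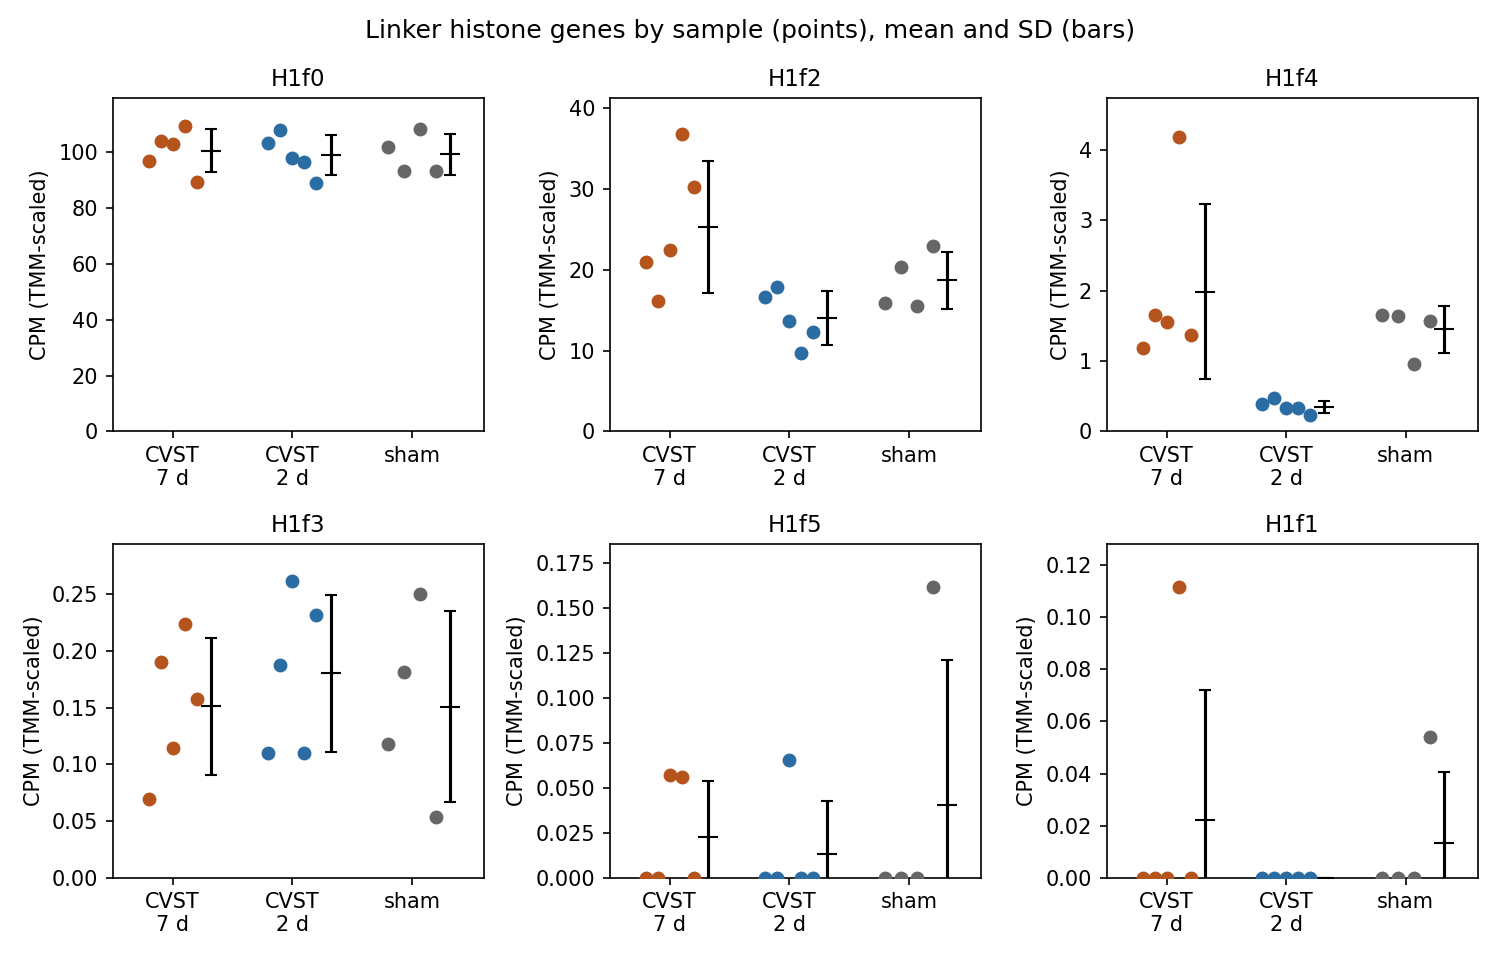
Levels of the 6 linker histone genes in CPM (vertical axes, each from 0) for CVST-7d, CVST-2d and sham; points are libraries, and the bar beside them is the mean with its SD. The 5 CVST-2d points of H1f4 lie between 0.232 and 0.469 CPM, below all other libraries, while the H1f0 groups overlap throughout.

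H1f3 (ENSMUSG00000052565), which encodes H1.3, had 1, 3, 2, 4 and 3 counts in CVST-7d, 2, 4, 4, 2 and 4 counts in CVST-2d, and 2, 3, 5 and 1 counts in sham. The groups overlapped, and the ratio of pooled CPM for CVST-2d against sham was 1.20 with a counting interval of 0.524 to 2.87, too wide for a usable comparison. H1f5 (ENSMUSG00000058773), which encodes H1.5, had 1 count in each of libraries 3 and 4 of CVST-7d, 1 count in library 3 of CVST-2d and 3 counts in sham 4, and 0 elsewhere. H1f1 (ENSMUSG00000049539), which encodes H1.1, had 2 counts in library 4 of CVST-7d, 0 counts in all CVST-2d libraries and 1 count in sham 4. For H1f1 and H1f5, no difference between groups was detectable at this depth, since a total of 3 counts over a group corresponds to 0.0359 CPM in CVST-7d, 0.0335 CPM in CVST-2d and 0.0406 CPM in sham.

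Per length, the mean FPKM over the 14 libraries was 55.3 for H1f0, 14.9 for H1f2, 0.746 for H1f4, 0.0493 for H1f5, 0.025 for H1f1 and 0.0236 for H1f3. The order of the last 3 is not resolved, because they rest on 6, 3 and 40 counts in total. The length by which the authors divided, taken as count over FPKM, was 1.80 kb for H1f0, 1.30 kb for H1f2, 1.68 kb for H1f4 and 6.52 kb for H1f3. RefSeq gives other lengths, 2293 bases for H1f0, 725 for H1f2, 782 for H1f4 and 776 for H1f3. Over RefSeq lengths, an alternative chosen after seeing the data, mean CPM per kb was 43.4 for H1f0, 26.7 for H1f2, 1.60 for H1f4, 0.208 for H1f3, 0.0306 for H1f5 and 0.0159 for H1f1.

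To see the makeup of the linker histone pool, the FPKM of the members were summed with that of H1f10, which encodes H1.10, a replication-independent linker histone outside the group. The sum was 96.2 ± 9.64 FPKM in CVST-7d (SD, n = 5), 84.1 ± 6.94 FPKM in CVST-2d (SD, n = 5) and 88.4 ± 6.97 FPKM in sham (SD, n = 4). H1f0 made up 58.9% ± 3.69 of the sum in CVST-7d, 66.0% ± 3.2 in CVST-2d and 60.8% ± 4.41 in sham (SD). H1f2 made up 20.2% ± 5.40 in CVST-7d, 12.8% ± 2.02 in CVST-2d and 15.8% ± 3.14 in sham. H1f10 made up 19.6% ± 3.28 in CVST-7d, 20.9% ± 2.69 in CVST-2d and 22.2% ± 3.36 in sham, so H1f2 and H1f10 lay within their spreads of each other in CVST-7d. H1f4 made up 1.21% ± 0.631 in CVST-7d, 0.253% ± 0.0389 in CVST-2d and 0.962% ± 0.268 in sham. H1f4 was the smallest of these 4 shares in every library. Over RefSeq lengths the share of H1f0 was 45.2% in CVST-7d, 55.2% in CVST-2d and 48.6% in sham, and that of H1f2 was 35.1% in CVST-7d, 24.4% in CVST-2d and 28.8% in sham. The share of H1f10 was then 17.0% in CVST-7d, 19.4% in CVST-2d and 20.2% in sham, and that of H1f4 was 2.49% in CVST-7d, 0.564% in CVST-2d and 2.09% in sham. The shares of H1f2 and H1f4 were over 1.5 times as high as by the deposited FPKM.

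**Figure D2:**
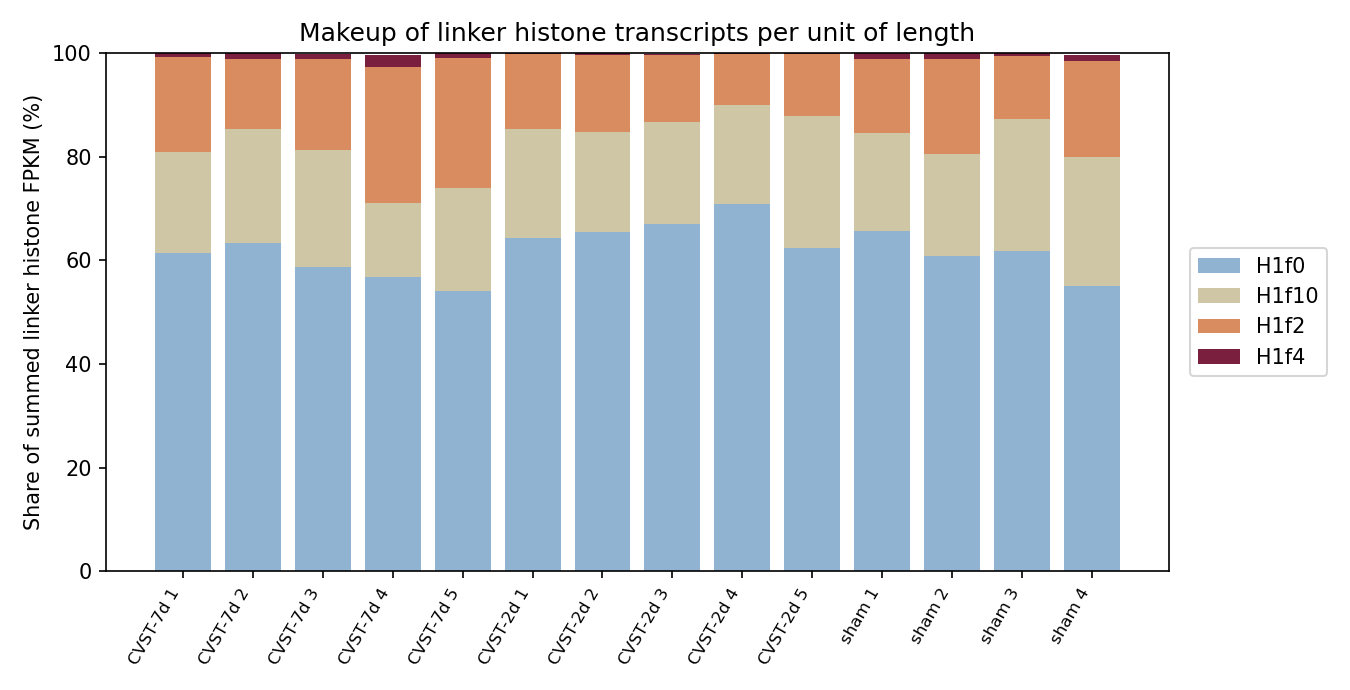
Share of each linker histone gene in the summed linker histone FPKM (vertical axis, percent) for every library, with CVST-7d at the left, then CVST-2d and sham; H1f1, H1f3 and H1f5 are not drawn, which leaves small gaps below 100%. By deposited FPKM, H1f0 was the largest share in every library, between 54.0% and 70.8% (over RefSeq lengths H1f2 was larger in libraries 4 and 5 of CVST-7d), and the H1f4 band is thinnest in CVST-2d.

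H1f4 was also set against H1f2, the other replication-dependent member past the filter, within each library. H1f4 made up 5.36%, 9.25%, 6.46%, 10.2% and 4.31% of the H1f4 plus H1f2 counts in CVST-7d. It made up 2.25%, 2.56%, 2.34%, 3.30% and 1.84% in CVST-2d, and 9.36%, 7.44%, 5.78% and 6.39% in sham. All CVST-2d shares lay below all others. These are the H1f4 counts that chose the group, given on another scale, and they add no support. Exact binomial intervals were wide, for example 2.84% to 6.25% in library 5 of CVST-7d and 1.22% to 7.04% in library 4 of CVST-2d, and these 2 overlap.

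**Figure D3:**
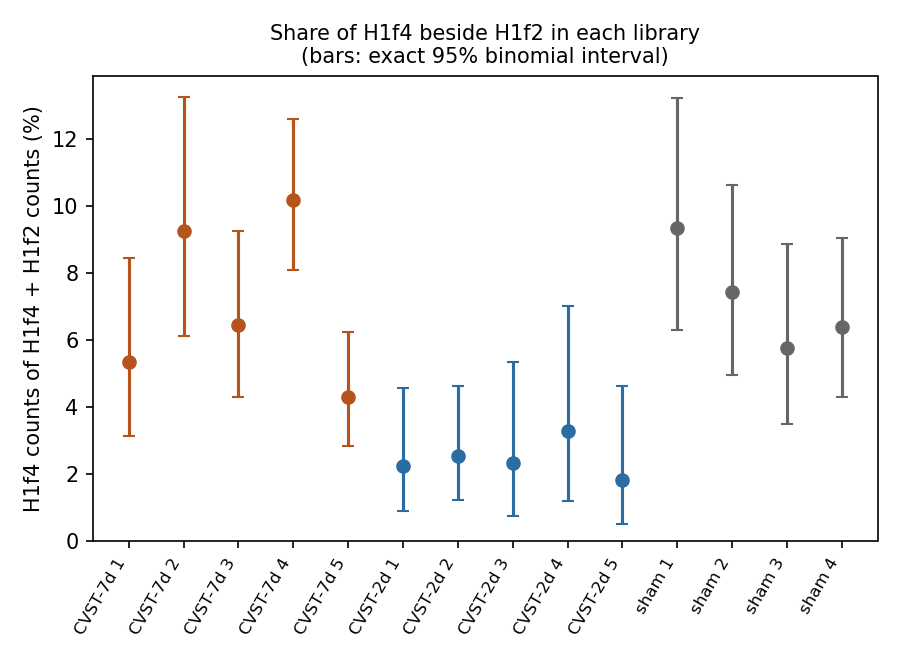
H1f4 counts as a percentage of H1f4 plus H1f2 counts (vertical axis) in each library, CVST-7d at the left, then CVST-2d and sham; bars are exact binomial intervals at a confidence level of 0.95. The CVST-2d values lie between 1.84% and 3.30% and the other libraries between 4.31% and 10.2%.

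Of the 3 members tested, edgeR called 1 at an adjusted p under 0.05 for CVST-2d against sham (H1f4), where 3.95% of 16918 genes were called, 2.98% as higher and 0.969% as lower. All CVST-2d values lay above all sham values for 5.65% of genes and below them for 3.06%. For CVST-7d against sham it called 0 of 3, with 0 at an unadjusted p under 0.05 and 0 by DESeq2, where 4.44% of all genes were called, 3.61% as higher and 0.833% as lower. All CVST-7d values lay above all sham values for 5.8% of genes and below them for 3.87%. For CVST-7d against CVST-2d it called 1 of 3 (H1f4), with 2 at an unadjusted p under 0.05 and 2 by DESeq2 (H1f2 and H1f4), where 2.8% of all genes were called, 1.54% as higher and 1.25% as lower. All CVST-7d values lay above all CVST-2d values for 2.28% of genes and below them for 2.13%. Over all 16918 genes, an unadjusted p under 0.05 in edgeR was reached by 2080 higher and 1587 lower for CVST-2d against sham. These were 1981 and 1339 for CVST-7d against sham, and 1745 and 1795 for CVST-7d against CVST-2d. DESeq2 called 1077 higher and 413 lower, 1064 and 323, and 651 and 644 in these comparisons. Because these comparisons chose the group, nothing is read from the counts of members. The CVST-2d call of H1f4 was lost without sham 2 or without sham 4, while its log2 fold change stayed between -2.18 and -1.90 with any single library left out.

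Core histones form the nucleosome that linker histones bind, and the clustered core histone genes are replication-dependent like H1f4. Of 59 such genes in the table, 5 had no count in any library and 11 were tested. For CVST-2d against sham, edgeR called 0 of these 11 higher and 2 lower, H2ac6 and H2bc6, the 2 genes that flank H1f4. The median log2 fold change of the 11 was -0.43, against -0.01 over all genes tested. The calls rested on single libraries, with 0 lower without sham 2, sham 3 or sham 4, and 3 without library 5 of CVST-2d. For CVST-7d against sham, 0 of 11 were called, with 1 at an unadjusted p under 0.05 and 0 by DESeq2, and the median was 0.26 against -0.01 over all genes. For CVST-7d against CVST-2d, 2 of 11 were called higher, again H2ac6 and H2bc6, and 0 lower, with a median of 0.84 against 0.01 over all genes. These 2 genes were called against CVST-2d libraries that both comparisons share. The summed level of the 59 genes was 48.2 to 80.4 CPM in CVST-7d, 37.4 to 50.04 CPM in CVST-2d and 45.1 to 62.9 CPM in sham, with overlap between the groups.

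H2ac6 (ENSMUSG00000069270), which encodes an H2A protein, had 8, 12, 18, 35 and 19 counts in CVST-7d, 4, 3, 5, 6 and 2 counts in CVST-2d, and 14, 20, 19 and 22 counts in sham. As for H1f4, all CVST-2d libraries lay below all others. The mean was 1.06 ± 0.535 CPM in CVST-7d (SD, n = 5), 0.227 ± 0.101 CPM in CVST-2d (SD, n = 5) and 1.04 ± 0.187 CPM in sham (SD, n = 4). H2ac6 fell by 2.19 ± 0.41 on the log2 scale in CVST-2d against sham (SE, edgeR adjusted p = 0.0148, lower in 5 of 5 libraries). That call was lost without sham 2, sham 3 or sham 4, with adjusted p up to 0.0543. It was 2.22 ± 0.39 higher on the log2 scale in CVST-7d than in CVST-2d (edgeR adjusted p = 0.0145, higher in 5 of 5 libraries), a call that held in all 14 settings tried. In GENCODE M21, H2ac6 shares no exon base with H1f4 or H2bc6, and is overlapped by Gm24991 on its own strand and Gm44350 on the other.

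H2bc6 (ENSMUSG00000047246), which encodes an H2B protein, had 53, 43, 60, 105 and 89 counts in CVST-7d, 43, 44, 25, 27 and 24 counts in CVST-2d, and 37, 92, 87 and 104 counts in sham. Of the CVST-2d libraries, 4 of 5 lay below all sham libraries, with sham 1 close to them, and 5 of 5 lay below all CVST-7d libraries. H2bc6 fell by 1.30 ± 0.29 on the log2 scale in CVST-2d against sham (SE, edgeR adjusted p = 0.0290) and was 1.19 ± 0.28 higher in CVST-7d than in CVST-2d (edgeR adjusted p = 0.0380). The first call was lost without sham 2, 3 or 4 or library 2, 3 or 4 of CVST-2d, and with the replicate number as a block. Its edgeR adjusted p ran up to 0.104. The second was lost without any 1 of the 10 libraries compared other than library 5 of CVST-2d and library 2 of CVST-7d. It was also lost with the block and with only the 2 groups fitted. Since H2bc6 shares exon bases with H1f4, it is not separate evidence for the level of that gene. The next gene beyond H2ac6, H2bc4 (ENSMUSG00000018102), averaged 28.5 ± 7.14 CPM in CVST-7d (SD, n = 5), 20.3 ± 4.36 CPM in CVST-2d (SD, n = 5) and 23.8 ± 4.24 CPM in sham (SD, n = 4). Its log2 fold change was -0.23 ± 0.19 for CVST-2d against sham (edgeR adjusted p = 0.512) and 0.49 ± 0.18 for CVST-7d against CVST-2d (edgeR adjusted p = 0.134).

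**Figure D4:**
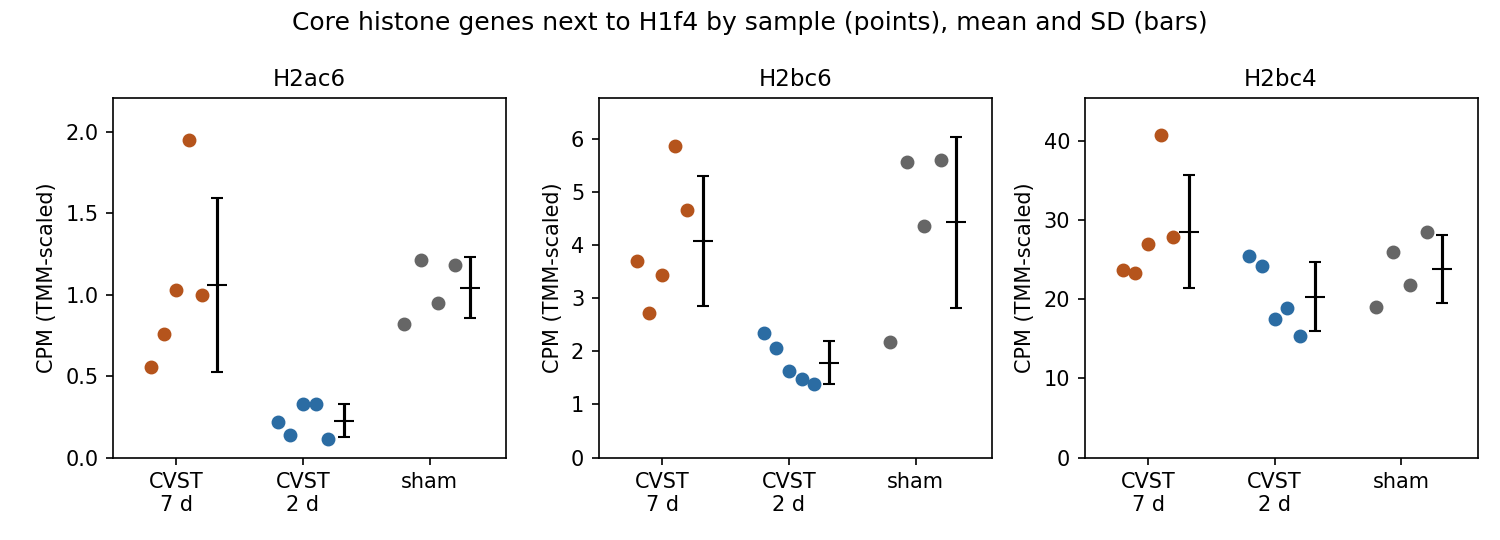
Levels in CPM (vertical axes, each from 0) of H2ac6 and H2bc6, which flank H1f4, and of H2bc4, the next gene beyond H2ac6, for CVST-7d, CVST-2d and sham; points are libraries, and the bar beside them is the mean with its SD. H2ac6 shows the gap of H1f4, with CVST-2d below all other libraries, while the H2bc4 groups overlap.

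Of the linker histone genes outside the group, H1f10 alone was tested. H1f10 (ENSMUSG00000044927) averaged 17.3 ± 2.64 CPM in CVST-7d (SD, n = 5), 16.1 ± 2.05 CPM in CVST-2d (SD, n = 5) and 19.3 ± 4.01 CPM in sham (SD, n = 4). Its log2 fold change was -0.26 ± 0.15 for CVST-2d against sham (edgeR adjusted p = 0.332) and 0.10 ± 0.14 for CVST-7d against CVST-2d (edgeR adjusted p = 0.728). H1f6, H1f7, H1f8 and H1f9, which are known from testis and oocytes, had 0 counts in all 14 libraries.

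Replacement histones are made outside DNA replication mostly from polyadenylated mRNAs, and all 9 on the list were tested. For CVST-2d against sham, edgeR called 0 of 9, with 2 higher and 1 lower at an unadjusted p under 0.05 and 2 higher by DESeq2, and the median log2 fold change was 0.07 against -0.01 over all genes. Cenpa, the centromeric H3, averaged 4.93 CPM in CVST-2d and 1.73 CPM in sham (log2 fold change 1.504 ± 0.42, edgeR adjusted p = 0.0597). For CVST-7d against sham, 0 of 9 were called, with 1 at an unadjusted p under 0.05 and 1 by DESeq2. For CVST-7d against CVST-2d, 1 of 9 was called, H2ax (ENSMUSG00000049932), the H2A that is phosphorylated at DNA breaks. H2ax averaged 20.2 ± 2.15 CPM in CVST-7d and 27.0 ± 2.68 CPM in CVST-2d (SD, n = 5 each), and fell by 0.42 ± 0.10 on the log2 scale in CVST-7d (edgeR adjusted p = 0.0389, lower in 5 of 5 libraries), a call lost without any 1 of the 10 libraries compared other than library 5 of CVST-2d and library 5 of CVST-7d.

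**Figure D5:**
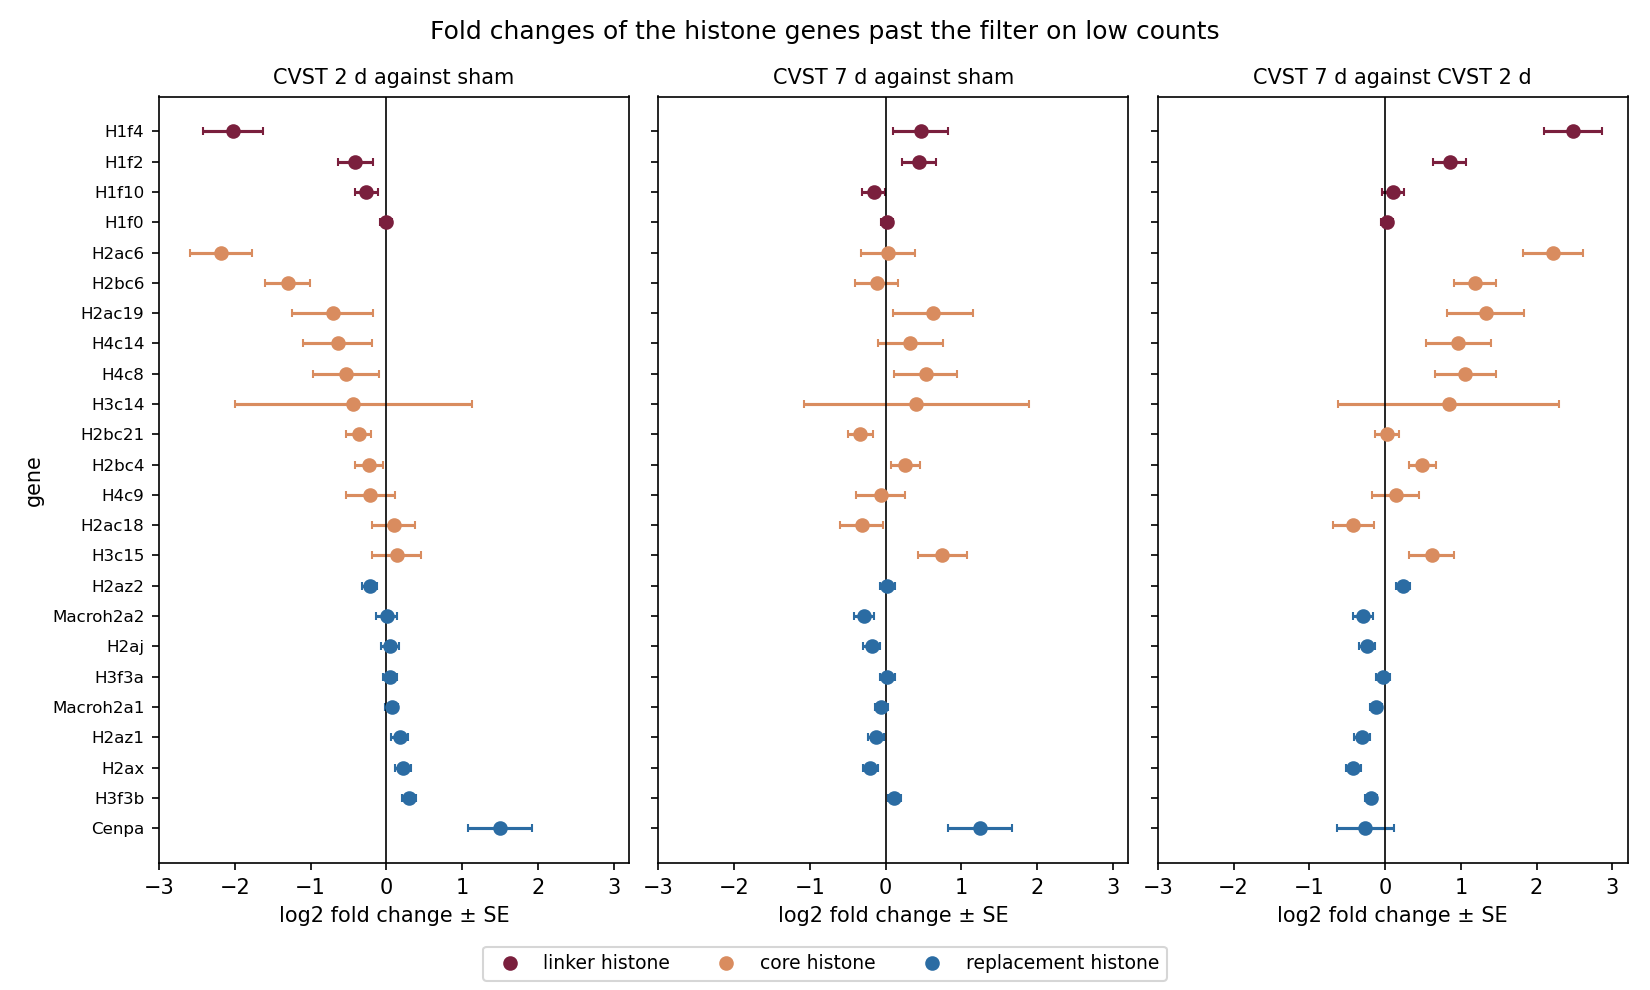
Log2 fold changes with SE (horizontal axes) of the linker, clustered core and replacement histone genes past the filter, for CVST-2d against sham, CVST-7d against sham and CVST-7d against CVST-2d. H1f4 and H2ac6 lie furthest to the left in the first panel, at -2.02 and -2.19, and furthest to the right in the last, at 2.48 and 2.22.

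Genes of DNA replication, with which replication-dependent histone genes are normally expressed, went the other way from H1f4 in CVST-2d. Of 25 such genes, 24 were tested, and edgeR called 17 higher and 0 lower for CVST-2d against sham, with a median log2 fold change of 1.23 against -0.01 over all genes. Lig1, a DNA ligase, rose by 0.98 ± 0.16 (edgeR adjusted p = 0.00914), Cdt1, a licensing factor, by 2.15 ± 0.41 (edgeR adjusted p = 0.0151), Cdc6, its partner in loading the helicase, by 2.79 ± 0.54 (edgeR adjusted p = 0.0154), Asf1b, a chaperone of new histones, by 2.75 ± 0.56 (edgeR adjusted p = 0.0188) and Mcm7, a helicase subunit, by 0.66 ± 0.13 (edgeR adjusted p = 0.0192). Of these 5 calls, Lig1 held without any single library, Cdt1 was lost without sham 3, and the other 3 were lost without sham 2, 3 or 4. Cdc6 averaged 1.87 CPM in CVST-2d, 0.573 CPM in CVST-7d and 0.267 CPM in sham. It may have passed the filter on low counts mainly through CVST-2d, where it is high. Its call, 1 of the 17, is therefore not read as support for a rise. The count of 17 was 1 without sham 3, 2 without sham 2 or sham 4, and 5 without sham 1 or without library 2 of CVST-2d. It was 7 without library 1 or 4 of CVST-2d, 10 without library 3 and 22 without library 5. For CVST-7d against sham, 0 of 24 were called by edgeR, with 10 higher at an unadjusted p under 0.05 and 4 by DESeq2. Over all 16918 genes, 1981 were higher at that unadjusted p. The median was 0.53. For CVST-7d against CVST-2d, 2 were called lower, Pcna, the sliding clamp of the polymerases (-0.49 ± 0.11, edgeR adjusted p = 0.0310), and Lig1 (-0.66 ± 0.15, edgeR adjusted p = 0.0328), with a median of -0.65. Over single libraries left out, the count of lower genes ran from 0 to 12, with 12 reached without library 5 of CVST-2d. The Pcna and Lig1 calls between the times were lost without any 1 of the 10 libraries compared other than library 5 of each group.

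Library 5 of CVST-2d stood apart here and for some of the cell markers given below. Its DNA replication genes summed to 159 CPM, against 268 to 331 CPM in the rest of CVST-2d and 144 to 158 CPM in sham. It was also the lowest of CVST-2d for the summed astrocyte (1376 CPM) and microglia and macrophage markers (164 CPM). For endothelial, choroid plexus and red cell markers it was not the lowest. Markers of dividing cells, 5 genes of which 4 were called higher in CVST-2d against sham, summed to 50.4, 74.6, 56.8, 62.7 and 3.13 CPM in CVST-2d, against 2.96 to 5.23 CPM in sham. Without that library the H1f4 log2 fold change for CVST-2d against sham was -1.90. That library held 4 counts of H1f4 (0.232 CPM), the lowest of the 14 libraries. The part of dividing cells in the H1f4 level was not tested. In CVST-7d the sum was 12.3, 8.49, 10.3, 24.5 and 65.2 CPM.

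Factors that shape the ends of histone mRNAs, such as the stem-loop binding protein Slbp, were all measured. Of 13, edgeR called 0 in any of the 3 comparisons. At an unadjusted p under 0.05 there were 2 higher and 0 lower for CVST-2d against sham, 0 higher and 1 lower for CVST-7d against sham, and 1 higher and 4 lower for CVST-7d against CVST-2d. Over all 16918 genes these were 2080 and 1587, 1981 and 1339, and 1745 and 1795. DESeq2 called 0, 0 and 3 of them in these comparisons. The medians were 0.05, -0.00 and -0.07.

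Histone chaperones and proteins that compete with linker histones for the nucleosome made a list of 15, all tested. For CVST-2d against sham, edgeR called 3 higher and 0 lower, all from the high mobility group, and the median was 0.11. Hmgb2 averaged 11.4 ± 4.28 CPM in CVST-2d (SD, n = 5) and 2.54 ± 0.664 CPM in sham (SD, n = 4), a rise of 2.17 ± 0.35 (edgeR adjusted p = 0.00809). Hmga2 averaged 1.73 ± 1.48 CPM in CVST-2d (SD, n = 5) and 0.0833 ± 0.104 CPM in sham (SD, n = 4), too few sham counts for a firm fold. In CVST-7d it averaged 0.196 CPM, so it passed the filter on low counts only through CVST-2d, where it is high. Its call, 1 of the 3, therefore gives no support for a rise. With single libraries left out, it was still tested in only 5 of 9 fits. Hmga1 rose by 0.76 ± 0.18 (edgeR adjusted p = 0.0351). For CVST-7d against sham, 1 was called higher, Hmgb2 (1.32 ± 0.34, edgeR adjusted p = 0.0445), and the median was -0.05. For CVST-7d against CVST-2d, 2 were called lower, Hmga1 (-1.02 ± 0.17, edgeR adjusted p = 0.0112) and the chaperone Set (-0.28 ± 0.06, edgeR adjusted p = 0.0241), and the median was -0.17. The Hmgb2 call in CVST-2d and the Hmga1 call between the times held in every setting tried. The Hmga2 and Hmga1 calls in CVST-2d were lost without any 1 of the 4 sham libraries, that of Hmga1 also without library 1, 2 or 4 of CVST-2d. The Set call was lost without library 1 or 4 of CVST-2d or library 4 of CVST-7d, and the Hmgb2 call at 7 d without any 1 of the sham libraries or without library 3, 4 or 5 of CVST-7d.

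Because the mRNAs of H1f1 to H1f5 typically lack a poly(A) tail, other RNAs without one were examined as a sign of how the libraries captured such RNA. The GENCODE M21 transcripts of H1f2 and H1f4 are 1560 and 1930 bases, longer than the RefSeq genes of 725 and 782 bases. Whether the reads of H1f2 and H1f4 came from mRNAs with or without a tail was not tested. Rn7sk, Rn7s1, Rn7s2 and Vaultrc5 had no entry. The other names, Rny1, Rny3, Rmrp, Rpph1 and Terc, matched 6 entries with 53 counts in all, none of which passed the filter. Their sum was 0 to 0.229 CPM in CVST-7d, 0 to 1.51 CPM in CVST-2d and 0 to 0.235 CPM in sham, the 1.51 CPM being library 3 of CVST-2d. At these counts no difference was detectable, and the part of RNA capture in the H1f4 level was not tested.

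Markers of cell types were examined next, and they do not test which brain region was taken. Markers of neurons summed to 4582 to 7309 CPM in CVST-7d, 5532 to 6770 CPM in CVST-2d and 5306 to 6621 CPM in sham, and 0 of 6 were called by edgeR in any comparison. Astrocyte markers summed to 1650 to 3817 CPM in CVST-7d, 1376 to 2532 CPM in CVST-2d and 929 to 1094 CPM in sham, with 2 of 5 called higher by edgeR at each time against sham. The sum was carried by Gfap, an intermediate filament of reactive astrocytes, which averaged 1064 CPM in CVST-7d, 1324 CPM in CVST-2d and 157 CPM in sham and was called at both times, with Aldh1l1 as the other call for CVST-2d and Aqp4 for CVST-7d. The gap junction gene Gja1 averaged 250.2 CPM in CVST-7d, 132 CPM in CVST-2d and 183 CPM in sham, with 5 of 5 CVST-2d libraries below all sham libraries (log2 fold change -0.48 ± 0.18, edgeR adjusted p = 0.135). The glutamate transporter gene Slc1a3 averaged 599 CPM in CVST-7d, 409.7 CPM in CVST-2d and 509.7 CPM in sham (-0.32 ± 0.14 for CVST-2d against sham, edgeR adjusted p = 0.211). Microglia and macrophage markers summed to 233 to 680 CPM in CVST-7d, 164 to 406 CPM in CVST-2d and 177 to 209 CPM in sham, with 5 of 6 called higher for CVST-7d and 0 of 6 for CVST-2d. At an unadjusted p under 0.05 in edgeR, 4 were higher and 1 lower for CVST-2d, against 2080 and 1587 of 16918 genes. Cd68 had a log2 fold change of 1.97 ± 0.54 (edgeR adjusted p = 0.0537), and P2ry12 went the other way (-0.54 ± 0.24, edgeR adjusted p = 0.209). Oligodendrocyte markers summed to 3346 to 7504 CPM in CVST-7d, 2681 to 4290 CPM in CVST-2d and 2795 to 7069 CPM in sham. Red cell markers summed to 2.01 to 32.5 CPM in CVST-7d, 25.0 to 385 CPM in CVST-2d and 4.10 to 26.0 CPM in sham. Endothelial markers summed to 175 to 243 CPM in CVST-7d, 194 to 310 CPM in CVST-2d and 162 to 222 CPM in sham. Of 5, edgeR called 2 higher for CVST-2d against sham, where 3.95% of all genes were called. These were Cdh5 (0.98 ± 0.23, edgeR adjusted p = 0.0338) and Pecam1 (1.02 ± 0.20, edgeR adjusted p = 0.0179). Slco1a4 went the other way (-0.38 ± 0.17, edgeR adjusted p = 0.206). Markers of choroid plexus summed to 8.78 to 122 CPM in CVST-7d, 4.87 to 483 CPM in CVST-2d and 13.01 to 849 CPM in sham. Choroid plexus markers were thus uneven between libraries of every group, with the highest sum in sham 4. Lymphocyte markers stayed under 1 CPM in sum in every library. For CVST-7d against CVST-2d, where 2.8% of all genes were called, edgeR called markers of several cell types. Higher were 2 of 5 for astrocytes, 1 of 6 for microglia and macrophages and 1 of 5 for oligodendrocytes. For endothelium 1 of 5 was higher and 1 lower, and for red cells 1 of 4 tested was lower. Of choroid plexus and dividing cell markers, 0 were called between the times. No marker on these lists was at 0 in all libraries, and the part of cell makeup in the linker histone levels was not tested.

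Among the 16917 other genes tested, the 5 whose log2 CPM over the 14 libraries was most like that of H1f4 were Appl2 (Pearson r 0.940), Dnah7b (0.928), H2ac6 (0.923), 4930402H24Rik (0.909) and Slc19a3 (0.905). Appl2 encodes an endosomal adaptor, Dnah7b a dynein of cilia and Slc19a3 a thiamine transporter. With group means taken out, these r values were 0.663, 0.618, 0.643, 0.610 and 0.489, which is lower for each than over all libraries. For H1f2 the 3 most alike were Serpine2, a secreted protease inhibitor (0.925), Lmo2, a transcription cofactor (0.915), and Apoe, the main lipid carrier of the brain (0.901), with 0.854, 0.889 and 0.807 within groups. For H1f0 they were Ephb2, an ephrin receptor (0.929), Sec1 (0.846) and Tmem108 (0.819), with 0.952, 0.847 and 0.818 within groups.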

How the data were processed

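The authors deposited read counts per gene and FPKM values for 14 samples. Per the submitters' processing notes, fastp, HISAT2 and DESeq2 1.16.1 were used on build mm39; which counting tool and annotation release made the table is not given in the sources used here. Entries without an Ensembl gene (535 of 55894, 0.203% to 0.278% of counts) were left out. The deposited counts of all 14 samples were fitted in edgeR 4.0.16 (R 4.3.3, limma 3.58.1) with group means, TMM, filterByExpr (16918 genes), the quasi-likelihood test, 2-sided, and Benjamini-Hochberg adjustment over all genes, called at an adjusted p under 0.05. The steps were tested on simulated data. CPM values are counts scaled to a common library total. Log2 CPM used a prior count of 2. No molecular identifiers are recorded in the labels, so PCR copies cannot be told from separate molecules, and intervals and floors cover counting error only. Alternatives were DESeq2 1.42.0, other size factors, no filter, fits of 2 groups, the replicate number as a block, each sample left out, log2 FPKM with pseudocounts of 0.1 and 1, and, added after seeing the data, RefSeq gene lengths for levels per length. Promoter windows came from RefSeq on GRCm38.p6, not the build of the files. The members and lists were chosen with earlier results of these data known. Named genes were all 6 members, of each list the called genes, at most 5 in each direction by smallest p, and the genes most like H1f4 (5) and each other measured member (3). Genes not called that are given with values, such as Cenpa and H2bc4, were added after their values were seen.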

Additional observations from a re-analysis of the deposited data

Results flagged for a closer look

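Of 51 groups of 4 or 5 libraries examined, 7 held a library set apart from the others by a gap that chance gives in about 1 of 20 groups. H1f4 was at 4.19 CPM in library 4 of CVST-7d, where the next highest library of that group had 1.65 CPM, and at 0.951 CPM in sham 3, where the next lowest sham library had 1.56 CPM. Lig1 was at 11.1 CPM in library 5 of CVST-2d, the lowest of its group, where the next had 15.4 CPM. Library 5 of CVST-7d was the highest of its group for Lig1 (12.6 CPM, next 8.85), Mcm7 (15.1 CPM, next 12.9), Pcna (48.1 CPM, next 41.4) and Hmgb2 (10.3 CPM, next 5.97).

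Between 7 d and 2 d, 7 of the named genes that are not linker histones differed by edgeR's quasi-likelihood test. The shared sham samples cancel in a difference of the effects, so this is the CVST-7d against CVST-2d comparison of the report and no further test. The log2 difference, 7 d minus 2 d, was 2.22 for H2ac6 (edgeR adjusted p = 0.0145), 1.19 for H2bc6 (edgeR adjusted p = 0.0380), -0.42 for H2ax (edgeR adjusted p = 0.0389), -0.66 for Lig1 (edgeR adjusted p = 0.0328), -0.49 for Pcna (edgeR adjusted p = 0.0310), -1.02 for Hmga1 (edgeR adjusted p = 0.0112) and -0.28 for Set (edgeR adjusted p = 0.0241).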

How the results depend on the processing

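No log2 fold change of H1f4, H1f2 or H1f0 moved by more than the spread between replicates under another tool, scaling or filter, except on the FPKM scale. There the H1f4 value was -1.56 with a pseudocount of 0.1 and -0.59 with 1 for CVST-2d against sham, and 1.91 and 0.80 for CVST-7d against CVST-2d, since the pseudocount is large beside levels of 0.15 to 2.58 FPKM. With single libraries left out, the values for CVST-2d against sham, CVST-7d against sham and CVST-7d against CVST-2d ran from -2.18 to -1.90, -0.01 to 0.60 and 2.01 to 2.62 for H1f4, from -0.51 to -0.30, 0.27 to 0.57 and 0.68 to 0.98 for H1f2, and from -0.04 to 0.04, -0.01 to 0.06 and -0.01 to 0.06 for H1f0. The members called ran from 0 to 1, 0 to 0 and 1 to 2, and were 2 for CVST-7d against CVST-2d under DESeq2 and without the filter.

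Counts of calls depended on the setting. Against 505 higher and 164 lower for CVST-2d against sham, DESeq2 gave 1077 and 413, and single libraries left out gave 60 to 1193 and 16 to 774. Against 611 and 141 for CVST-7d against sham, DESeq2 gave 1064 and 323, no filter 92 lower, and libraries left out 101 to 892 and 18 to 143. Against 261 and 212 for CVST-7d against CVST-2d, DESeq2 gave 651 and 644, a fit of these 2 groups alone 55 and 26, and libraries left out 98 to 604 and 75 to 705. Lowest counts against sham came without sham 3. Genes of the 7 lists called, 22, 1 and 7, ran from 2 to 32, 0 to 4 and 2 to 23 with libraries left out, and were 7 and 18 in the last 2 comparisons under DESeq2 and 1 in the last with its 2 groups alone. The cause was not tested.

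Same-numbered samples did not deviate together (r from -0.438 to 0.280 over 13 pairs, 2 of them above 0.1), so the numbers are not taken to pair samples. With the replicate number as a block, 186 genes were called higher for CVST-2d against sham, 55 higher and 26 lower for CVST-7d against sham, 57 higher and 34 lower for CVST-7d against CVST-2d, and 7, 0 and 2 list genes. The H1f4 values with the block were -1.92, 0.49 and 2.41. Among the genes named above, the block lost the CVST-2d calls of H2bc6, Asf1b, Hmga2 and Hmga1, and the Hmgb2 call at 7 d. Between the times it lost those of H2bc6, H2ax, Lig1, Pcna and Set. A fit of CVST-7d and CVST-2d alone lost these same calls between the times. Depth limits H1f4 in CVST-2d, with 4 to 10 counts per library, and leaves H1f1, H1f3 and H1f5 without a usable comparison.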

Other observations

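H2ac19, a core histone gene with a near-identical copy in H2ac18, between which reads may be split, averaged 4.32 ± 0.729 CPM in CVST-7d (SD, n = 5), 1.69 ± 1.15 CPM in CVST-2d (SD, n = 5) and 2.80 ± 0.382 CPM in sham (SD, n = 4). H2ac18 averaged 4.73 ± 1.71 CPM in CVST-7d, 6.35 ± 1.86 CPM in CVST-2d and 5.92 ± 1.52 CPM in sham (SD), and library 3 of CVST-2d had 0 counts of H2ac19 beside 7.53 CPM of H2ac18. The sum of the pair was 6.13 to 12.4 CPM in CVST-7d, 7.32 to 10.2 CPM in CVST-2d and 6.72 to 10.5 CPM in sham, with overlap between all groups, although all 5 CVST-7d libraries lay above all others for H2ac19 alone. For H2ac19, edgeR called neither comparison (adjusted p = 0.554 against sham and 0.152 against CVST-2d). The pair was chosen after its values were seen.

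Library 4 of CVST-7d held the highest CPM of the 14 libraries for H2ac6 (1.95), H2bc6 (5.86) and H2bc4 (40.8), as it did for H1f0 (109.6), H1f2 (36.8) and H1f4 (4.19).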
